A study of Mus musculus with 12 samples.

Results

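The genes described here are 36 endothelial and pericyte genes, the genes by which blood vessel lining cells and the mural cells wrapped around small vessels are usually recognised, together with ligands and receptors that act on them. They were chosen by name, with earlier results of these data known. Each was read from the brightest of the array's probe sets annotated to that gene alone. They are 36 of the 18193 genes that the arrays could name. The RNA came from 12 tumours grown in the cecum of C57BL/6 mice from MC38, an established mouse line of colon carcinoma, and each was measured on an Affymetrix array. All groups carried a doxycycline-inducible hairpin against TDO2, which starts the breakdown of tryptophan to kynurenine. The groups were APC-WT no Dox, APC-WT Dox, APC-KO no Dox and APC-KO Dox, with 3 tumours in each. Dox stands for doxycycline given in the drinking water, and APC is the scaffold protein of the complex that degrades beta-catenin. The labels give neither the dose of Dox nor the age of the mice, nor whether the APC-KO line was 1 clone or the tumours came from separate animals. The p-values therefore measure the spread between these tumours, which may be technical. Dox was not given to tumours lacking the hairpin in the groups used here, so what Dox does alone and what the hairpin does cannot be told apart.

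Tumours draw blood vessels from the host by sprouting and by remodelling. Vascular endothelial growth factors bind KDR, FLT1 and FLT4 on endothelial cells, with the neuropilins as co-receptors, and drive growth and leakiness of vessels. Angiopoietin-1 from mural cells acts through TEK and TIE1 to quieten and tighten the lining, while Notch ligands and receptors divide the sprout into leading tip cells and following stalk cells. Pericytes sit on the outside of capillaries and are marked by RGS5 and CSPG4. Since whole tumours were extracted, a lower number of cells of a type and less RNA in each such cell cannot be told apart.

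Most members lay above the filter level described next, and the lymphatic genes Lyve1 and Prox1 lay under it. Values are deposited log2 expression values, and the floor used here is 5.55, the median over the array's probe sets, which serves as a filter and is not a measured background. Of the 36 members, 32 lay above the floor on all 12 arrays, among them Pecam1, Cdh5 and Kdr, which define endothelium, and Rgs5 and Cspg4. The lymphatic genes Lyve1, a hyaluronan receptor, and Prox1, the transcription factor that sets lymphatic identity, lay under it on all 12 arrays, with means of 3.46 and 2.80. Tek, the angiopoietin receptor, had a mean of 5.36 and lay under the floor on 9 of 12 arrays. These 3 genes were not tested, which left 33 members. Sox17 straddled the floor, with 2 of 3 arrays under it in each APC-WT group and none in the APC-KO groups. Outside the members, 7 of 31 other endothelial and 7 of 18 other mural cell markers measured lay under the floor on all arrays. Only 2 of 8 other lymphatic markers measured did so. The floor therefore does not show whether a type of vessel was present.

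Arrays of a group correlated at 0.995 to 0.9979. The array that stood apart for these genes was APC-WT no Dox replicate 3, where 31 of 33 members lay below the mean of their group. Its median deviation over the members was -0.156, against -0.032 over all genes tested, and it was the lowest of the 12 arrays for 15 of 33 members (11.6% of all genes). At the other end, APC-KO Dox replicate 2 was the highest array for 12 of 33 members (7.39% of all genes). All 3 Tdo2 probe sets lay under the floor on every array and could not check the hairpin. Of 4 Apc probe sets, 3 were above the floor, and 2 of the 4 without Dox and all 4 with Dox were lower on every APC-KO array than on every APC-WT array. The difference between the 3′ and 5′ control probe sets of Gapdh, a measure of RNA integrity, was -0.116 to -0.092 in APC-WT no Dox and -0.184 to -0.154 in APC-KO no Dox tumours. With Dox the order was the other way, -0.188 to -0.158 in APC-WT and -0.156 to -0.111 in APC-KO tumours. The same measure for actin overlapped without Dox, at 0.184 to 0.254 in APC-WT and 0.174 to 0.219 in APC-KO tumours. With Dox it was 0.167 to 0.190 and 0.193 to 0.275. The mean of the 18S ribosomal control probe sets was 9.201 to 9.327 in APC-WT and 9.475 to 9.758 in APC-KO tumours without Dox. With Dox it overlapped, at 9.058 to 9.328 and 8.959 to 9.237. The part of RNA integrity or of the 18S level in the differences between groups was not tested.

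**Figure D1:**
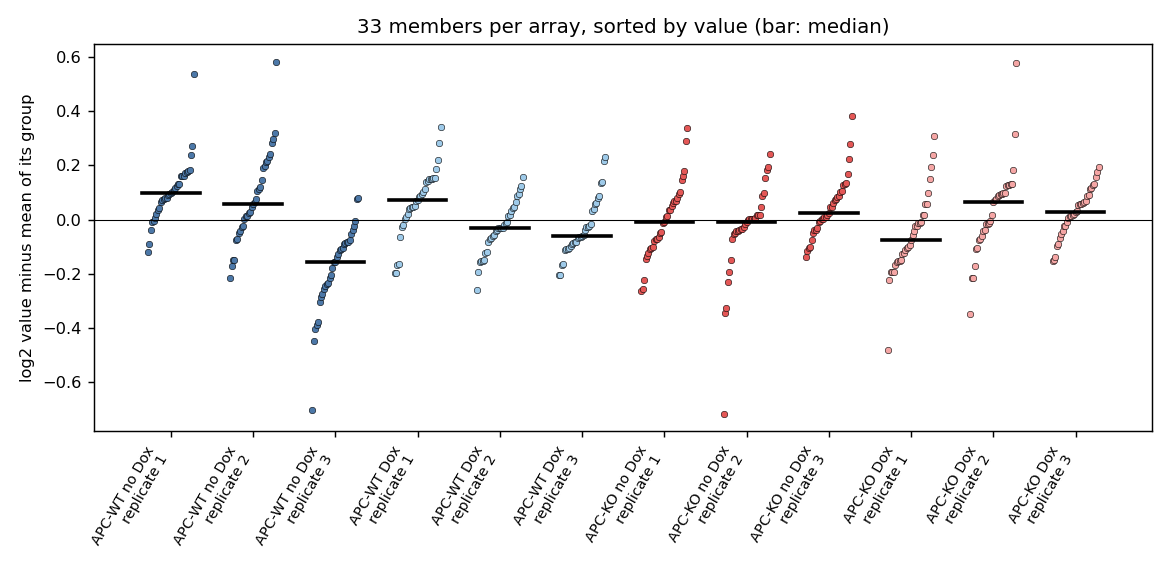
Deviation of each of the 33 members above the floor from the mean of its group, on the log2 scale, for each of the 12 arrays; each point is 1 member, sorted by value within an array, and bars are medians. In APC-WT no Dox replicate 3 the points lie mostly under 0, with a median of -0.156, while the medians of the other arrays lie nearer to 0.

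Between genotypes, the members were more often higher than lower in APC-KO tumours. Of 22 other endothelial markers tested, 54.5% lay above 0 without Dox and 63.6% with Dox, against 52.2% and 53.1% of all genes. Averaged over all 36 members, the log2 level was 7.07 to 7.34 in APC-WT no Dox and 7.16 to 7.27 in APC-WT Dox tumours, and 7.37 to 7.46 and 7.38 to 7.48 in APC-KO tumours without and with Dox. Each APC-KO array thus lay above each APC-WT array by this average, which gives every gene the same weight. The log2 of their summed linear values, which the brightest genes dominate, overlapped between genotypes both without Dox (13.38 to 13.61 against 13.41 to 13.62) and with Dox (13.47 to 13.54 against 13.53 to 13.67).

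Without Dox, 8 of 33 members passed an adjusted p of 0.05 in the limma fit, 6 higher and 2 lower in APC-KO tumours. Each difference is a log2 difference of means of 3 tumours a group with its standard error (±) from that fit, and passing means this threshold throughout. The share of members that passed was 24.2%, against 24.9% of all 11070 genes tested, so it was that of the background. By direction, 18.2% of members passed as higher, against 13.8% of all genes, and 6.06% as lower, against 11.1%. The higher genes were Rgs5, Notch4, Sox18, Ramp2, Mcam and Plvap, and the lower genes were Nrp2 and Cd34. The members' median difference was 0.22 with 28 of 33 above 0, while that of all genes was 0.01 with 52.2% above 0. Groups did not overlap for 12 members, or 36.4%, against 37.2% of all genes. Without APC-WT no Dox replicate 3, the array that stood low for these genes, 5 of 33 members passed, 3 higher and 2 lower. Of all genes 24.7% passed in that fit, so the members did not exceed the background. Their median was 0.13, with 23 of 33 above 0.

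With Dox, 15 of 33 members passed, 13 higher and 2 lower in APC-KO tumours. That is 45.5% of the members against 19.9% of all genes, for higher calls alone 39.4% against 11.9%, and for lower calls 6.06% against 7.99%. Aplnr, Vegfc, Rgs5, Angpt1, Notch4, Ramp2, Cdh5, Plvap, Emcn, Mcam, Egfl7, Kdr and Sox18 were higher, and Nrp2 and Vwf were lower. The median difference was 0.23 with 26 of 33 above 0, against 0.01 and 53.1% over all genes. Groups did not overlap for 20 members, or 60.6%, against 41.4% of all genes. The count depended on single arrays: 8 of 33 members passed without APC-WT Dox replicate 2 and 8 without APC-KO Dox replicate 2, and 9 passed without replicate 3 of either group. The share of all genes that passed fell too, to between 11.7% and 14.1% in these fits. Without replicate 1 of APC-WT Dox 18 members passed, and without replicate 1 of APC-KO Dox 16 did, where 17.1% and 17.6% of all genes passed. The 18 members that did not pass ranged from -0.25 to 0.45, with adjusted p from 0.06 to 0.906.

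The comparisons without and with Dox share no tumour. Passing in both were 7 of 33 members, against 1359 of all 11070 genes tested. Sox18, Plvap, Mcam, Notch4, Ramp2 and Rgs5 were higher, and Nrp2 was lower. Cd34 passed without Dox and 8 members passed with Dox. A member that passed in one comparison and missed in the other is not shown to differ between them: no interaction of Dox and genotype passed, as given below. The sign was the same in both comparisons for 27 of 33 members, and for 72.1% of all genes tested.

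**Figure D2:**
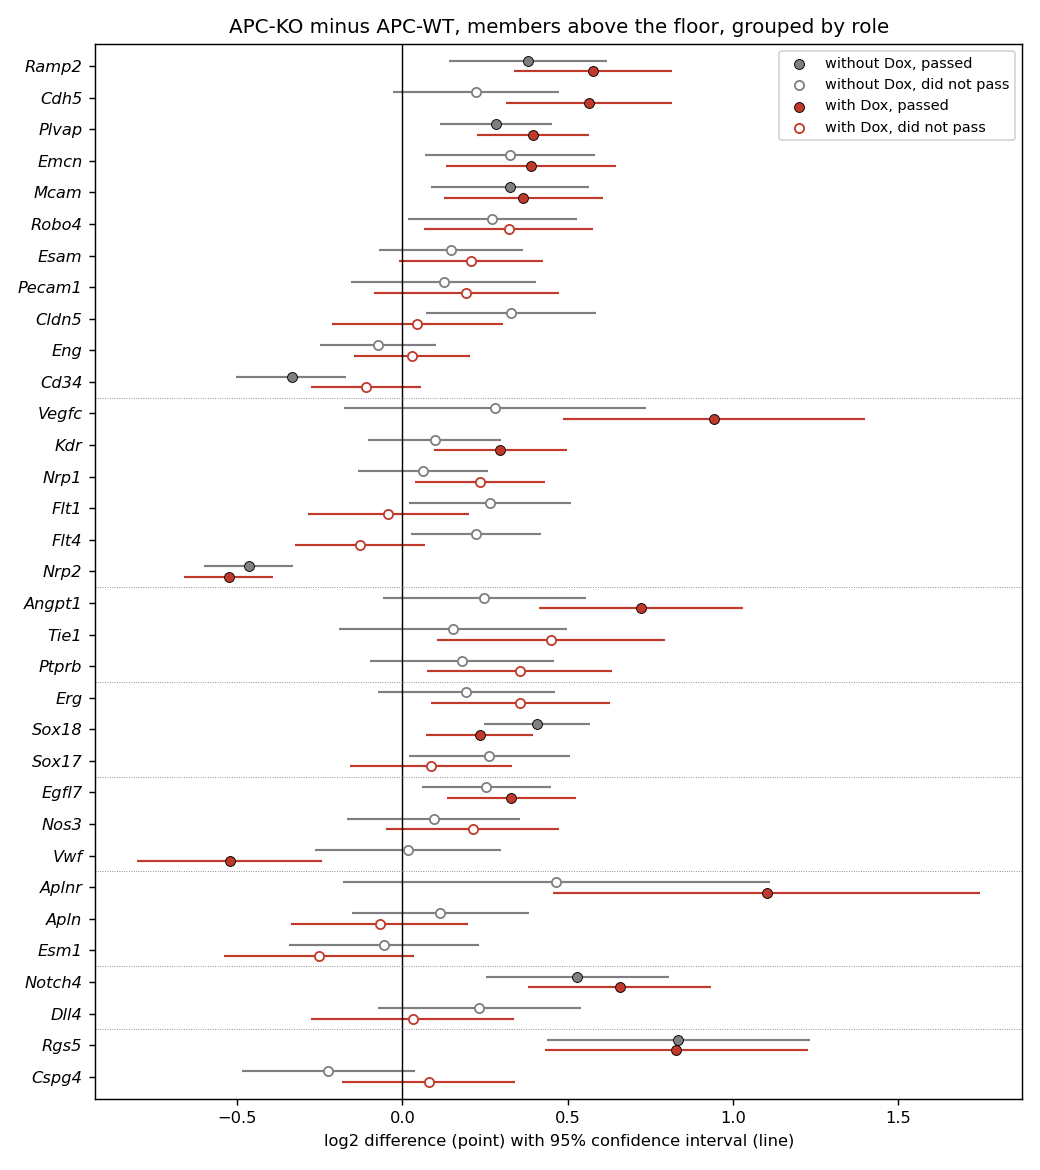
Difference between APC-KO and APC-WT tumours for the 33 members above the floor, on the log2 scale, without Dox (grey) and with Dox (red); points are fitted differences over 3 tumours a group, lines are 95% confidence intervals, filled points passed, and dotted lines separate the roles. Rgs5 lies at 0.84 and 0.83 and Nrp2 at -0.47 and -0.53, while Vwf lies near 0 without Dox and at -0.52 with Dox.

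Among the junction and surface proteins of endothelium, 3 of 11 rose and 1 fell in APC-KO tumours without Dox, and 5 of 11 rose with Dox. That is 36.4% and 45.5%, against 24.9% and 19.9% of all genes. Higher calls alone were 27.3% and 45.5%, against 13.8% and 11.9%. The same shares of all genes apply to the role groups below. Cdh5 encodes VE-cadherin, the adhesion molecule of endothelial junctions. It stood at 6.90, 6.87 and 6.79 in APC-WT Dox tumours and at 7.61, 7.38 and 7.27 in APC-KO Dox tumours. All 3 APC-KO values lay above all 3 APC-WT values, a difference of 0.57 ± 0.12 or 1.48-fold (adjusted p = 0.00431). Without Dox the values were 7.23, 7.16 and 6.78 in APC-WT and 7.16, 7.30 and 7.39 in APC-KO tumours, which overlapped, and the difference was 0.22 ± 0.12 (adjusted p = 0.185).

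Ramp2 encodes the partner that makes the calcitonin receptor-like receptor respond to adrenomedullin. Its values without Dox were 7.87, 8.22 and 7.89 in APC-WT and 8.30, 8.34 and 8.48 in APC-KO tumours. With Dox they were 8.20, 7.97 and 7.98 in APC-WT and 8.40, 8.76 and 8.72 in APC-KO tumours. In both comparisons the APC-KO arrays lay above the APC-WT arrays, by 0.38 ± 0.11 (adjusted p = 0.0235) and 0.58 ± 0.11 (adjusted p = 0.00279). The first of these calls ended when replicate 1 or 3 of APC-WT no Dox, or replicate 3 of APC-KO no Dox, was left out, with an adjusted p of up to 0.0882, and with array quality weights (0.0643).

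Plvap encodes the protein of the diaphragms that close fenestrae and caveolae of leaky vessels. It read 8.05, 8.01 and 7.79 in APC-WT no Dox and 8.25, 8.22 and 8.24 in APC-KO no Dox tumours, the second set within a few hundredths of each other. With Dox it read 7.95, 7.88 and 8.01 in APC-WT and 8.24, 8.47 and 8.32 in APC-KO tumours. The APC-KO arrays were higher in both comparisons, by 0.28 ± 0.08 (adjusted p = 0.0179) and 0.40 ± 0.08 (adjusted p = 0.00347). The first call ended without APC-WT no Dox replicate 3 (0.0627).

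Mcam, an adhesion molecule of endothelial cells and pericytes, read 8.19, 7.89 and 7.67 in APC-WT no Dox and 8.20, 8.25 and 8.29 in APC-KO no Dox tumours. With Dox it read 8.08, 7.74 and 7.87 in APC-WT and 8.25, 8.25 and 8.29 in APC-KO tumours. The APC-KO values were close together and the APC-WT values were spread below them, with no overlap in either comparison. The differences of 0.33 ± 0.11 and 0.37 ± 0.11 passed narrowly (adjusted p = 0.0464 and 0.0334). Leaving out single arrays ended the first call for 9 of 12 arrays, all except APC-WT no Dox replicate 1 and APC-WT Dox replicates 1 and 2, with an adjusted p of up to 0.171. With all arrays it ended with eBayes without a trend (0.0549), the mean of probe sets (0.0516), no floor (0.0614) and only the groups compared (0.0897). Leaving out arrays ended the second call for replicates 2 and 3 of APC-WT Dox and each APC-KO Dox replicate, with an adjusted p of up to 0.147.

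Emcn encodes endomucin, a sialomucin of capillary and venous endothelium. Its values with Dox were 7.39, 7.15 and 7.36 in APC-WT and 7.53, 7.87 and 7.66 in APC-KO tumours. The APC-KO arrays lay above the others, by 0.39 ± 0.12 (adjusted p = 0.0355), and the call ended without replicate 2 or 3 of either group (up to 0.149). Without Dox the values were 7.23, 7.62 and 7.12 in APC-WT and 7.66, 7.65 and 7.64 in APC-KO tumours, and the difference of 0.33 ± 0.12 did not pass (adjusted p = 0.0625).

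Cd34, a sialomucin shared by endothelium, some fibroblasts and blood progenitors, went the other way. It read 11.68, 11.62 and 11.52 in APC-WT no Dox and 11.45, 11.08 and 11.29 in APC-KO no Dox tumours, so that each APC-KO array was lower. The difference was -0.34 ± 0.08, or 1.26-fold lower (adjusted p = 0.00686), and it passed in each fit with 1 array left out. With Dox the values were 11.62, 11.65 and 11.54 in APC-WT and 11.48, 11.43 and 11.56 in APC-KO tumours, which overlapped, with a difference of -0.11 ± 0.08 (adjusted p = 0.356). Pecam1, Esam, Eng, Cldn5 and Robo4, adhesion molecules, a TGF-beta co-receptor, a tight junction claudin and a guidance receptor, passed in neither comparison. Their differences ran from -0.07 for Eng to 0.33 for Cldn5 without Dox and from 0.03 for Eng to 0.32 for Robo4 with Dox. Pecam1, a common stand-in for vessel content, differed by 0.13 ± 0.13 (95% interval -0.16 to 0.41) and 0.19 ± 0.13 (95% interval -0.09 to 0.47).

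Of the 6 genes of the VEGF receptors, co-receptors and ligand, Nrp2 fell in both comparisons, and Vegfc and Kdr rose with Dox. That is 16.7% without Dox and 50% with Dox, against 24.9% and 19.9% of all genes. Nrp2 encodes neuropilin-2, a co-receptor for VEGF-C and for class 3 semaphorins that tumour and stromal cells can carry as well. Without Dox it stood at 10.06, 10.00 and 9.87 in APC-WT and 9.56, 9.46 and 9.51 in APC-KO tumours. With Dox it stood at 10.03, 10.04 and 9.91 in APC-WT and 9.48, 9.40 and 9.52 in APC-KO tumours. No APC-KO array reached the lowest APC-WT array. The differences were -0.47 ± 0.06 (adjusted p = 0.00018) and -0.53 ± 0.06 (adjusted p = 6.36e-05), or 1.38-fold and 1.44-fold lower, and both passed in each fit with 1 array left out. Of its other 3 probe sets above the floor, 1 fell in both comparisons and 1 with Dox. The remaining probe set, with a mean of 9.14, read 0.03 without Dox and -0.11 under Dox, with adjusted p of 0.815 and 0.382 in a fit of every probe set, so the probe sets of this gene disagreed.

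Vegfc encodes the ligand of FLT4 and drives lymphatic and venous growth. With Dox its values were 7.20, 7.10 and 7.36 in APC-WT and 8.01, 8.25 and 8.22 in APC-KO tumours, well apart. The difference was 0.94 ± 0.21, or 1.92-fold (adjusted p = 0.0071), and all 3 of its probe sets passed. Without Dox it read 7.77, 7.69 and 7.52 in APC-WT and 8.28, 7.23 and 8.32 in APC-KO tumours. Replicate 2 of the APC-KO group lay below every APC-WT array while the other two lay above, and the difference was 0.28 ± 0.21 (adjusted p = 0.365). Its receptor Flt4 passed in neither comparison, reading 0.22 ± 0.09 (adjusted p = 0.0929) without Dox and -0.13 ± 0.09 (adjusted p = 0.368) with it.

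Kdr, the main signalling receptor for VEGF-A, read 6.91, 6.71 and 6.65 in APC-WT Dox and 6.93, 7.19 and 7.05 in APC-KO Dox tumours. The groups were separated by a narrow margin, and the difference of 0.30 ± 0.09 passed (adjusted p = 0.0395) but not without replicate 2 or 3 of either group (up to 0.161). The replicate numbers as a block (0.057) and no floor (0.0607) also ended it. Without Dox it differed by 0.10 ± 0.09 (adjusted p = 0.486). Flt1, a receptor that also acts as a trap for VEGF-A and placental growth factor, differed by 0.26 ± 0.11 and -0.04 ± 0.11 and passed in neither. Of its other 2 probe sets above the floor, both passed without Dox, at 0.38 and 0.46 (adjusted p = 0.00733 and 0.0488), and neither with Dox. Nrp1, the other neuropilin, differed by 0.06 ± 0.09 and 0.23 ± 0.09 and passed in neither.

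In the angiopoietin and TIE group, 1 of 3 tested genes rose with Dox and none passed without it. Of all genes, 19.9% passed with Dox and 24.9% without it. Angpt1, the angiopoietin of mural and stromal cells that activates TEK, read 6.08, 5.99 and 6.36 in APC-WT Dox and 6.70, 7.18 and 6.72 in APC-KO Dox tumours. All APC-KO values were above the APC-WT values, by 0.72 ± 0.14 or 1.65-fold (adjusted p = 0.00338). Without Dox the groups overlapped, at 6.40, 6.65 and 6.26 in APC-WT and 6.83, 6.64 and 6.58 in APC-KO tumours, and the difference was 0.25 ± 0.14 (adjusted p = 0.227). Tie1, the partner receptor of TEK, differed with Dox by 0.45 ± 0.16, and Ptprb, the phosphatase that removes phosphate from TEK, by 0.36 ± 0.13. Their groups did not overlap with Dox, yet neither passed (adjusted p = 0.0652 and 0.0713). Tek itself, near the floor, read -0.001 and 0.22 and was not tested.

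Of the transcription factors of endothelium, Sox18 rose in both comparisons. SOX18 acts in vessel and lymphatic development. It read 7.41, 7.46 and 7.38 in APC-WT no Dox and 7.90, 7.78 and 7.78 in APC-KO no Dox tumours, a clear separation of 0.41 ± 0.08 (adjusted p = 0.00172) that passed in each fit with 1 array left out. With Dox it read 7.80, 7.60 and 7.58 in APC-WT and 7.80, 7.96 and 7.91 in APC-KO tumours, where the highest APC-WT array and the lowest APC-KO array nearly touched. That difference of 0.23 ± 0.08 passed (adjusted p = 0.0417) but not without replicate 2 or 3 of either Dox group or APC-KO no Dox replicate 3 (up to 0.165). Nor did it pass with the replicate numbers as a block (0.0544), with no floor (0.0681) or with only the groups compared (0.0568). Erg, an ETS factor that keeps endothelial identity, and Sox17, a factor of arterial endothelium, differed by 0.19 and 0.26 without Dox and 0.36 and 0.09 with Dox. None of these passed (adjusted p from 0.06 to 0.637).

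The secreted and enzyme genes moved apart from each other with Dox. Egfl7, a matrix-bound protein that endothelial cells secrete, read 8.07, 7.96 and 7.96 in APC-WT and 8.23, 8.41 and 8.34 in APC-KO tumours and was higher there by 0.33 ± 0.09 (adjusted p = 0.021). The call ended without replicate 2 or 3 of either group (up to 0.0833). Without Dox Egfl7 differed by 0.25 (adjusted p = 0.057), and passed with the mean of its probe sets (0.30, adjusted p = 0.0208). In a fit of every probe set, each of its other probe sets passed without Dox, at 0.29, 0.37 and 0.28 (adjusted p = 0.037, 0.0214 and 0.0269). With Dox 1 of them did not pass (0.27, adjusted p = 0.0978). Vwf encodes von Willebrand factor, which endothelial cells store and which megakaryocytes and platelets carry too. It read 6.74, 7.03 and 6.95 in APC-WT Dox and 6.69, 6.17 and 6.30 in APC-KO Dox tumours. All 3 APC-KO values were lower, although replicate 1 lay just under the lowest APC-WT array. The difference was -0.52 ± 0.13, or 1.44-fold lower (adjusted p = 0.0126), and it did not pass when replicate 2 of APC-WT Dox, or replicate 2 or 3 of APC-KO Dox, was left out (up to 0.0606). Without Dox Vwf differed by 0.02 ± 0.13 (adjusted p = 0.943). Nos3, the endothelial nitric oxide synthase, passed in neither comparison, at 0.10 ± 0.12 and 0.21 ± 0.12.

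Platelet transcripts were measured beside Vwf. The log2 of the summed values of 6 platelet and megakaryocyte markers was 10.28 to 10.73 in APC-WT Dox and 10.02 to 10.07 in APC-KO Dox tumours, with Treml1 under the floor on all arrays. None of the 4 markers tested passed. Pf4, the platelet factor 4 gene, had the smallest p at a difference of -0.60 ± 0.21 (adjusted p = 0.0597). The part of platelets in the difference of Vwf was not tested.

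Of the apelin and tip cell genes, Aplnr rose with Dox and the others did not pass. Aplnr encodes the apelin receptor, carried by sprouting and venous endothelium. It read 8.66, 8.05 and 8.23 in APC-WT Dox tumours and 8.94, 9.99 and 9.32 in APC-KO Dox tumours, a difference of 1.10 ± 0.30 or 2.15-fold (adjusted p = 0.0198), the largest among the members in any comparison. The spread was wide, and the call ended when replicate 2 or 3 of APC-WT Dox, or replicate 2 of APC-KO Dox, was left out (up to 0.0896). Its second probe set differed by 0.56 and did not pass (adjusted p = 0.0703 over all probe sets). Without Dox the values were 8.42, 8.89 and 7.60 in APC-WT and 8.84, 8.43 and 9.05 in APC-KO tumours, which overlapped, with a difference of 0.47 ± 0.30 (adjusted p = 0.283). Apln, the ligand of this receptor, did not follow it, at 0.12 ± 0.13 without and -0.07 ± 0.13 with Dox (adjusted p = 0.543 and 0.747). Esm1, a proteoglycan secreted by tip cells, read -0.06 ± 0.13 and -0.25 ± 0.13 (adjusted p = 0.802 and 0.213).

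Notch4, the Notch receptor found mainly on endothelium, rose in both comparisons. Its values without Dox were 6.70, 6.64 and 6.22 in APC-WT and 6.94, 7.23 and 6.97 in APC-KO tumours. With Dox they were 6.52, 6.48 and 6.25 in APC-WT and 7.05, 6.97 and 7.21 in APC-KO tumours. Every APC-KO array lay above every APC-WT array of both Dox states. The differences were 0.53 ± 0.13 (adjusted p = 0.00901) and 0.66 ± 0.13 (adjusted p = 0.0031), or 1.44-fold and 1.58-fold, and both passed in each fit with 1 array left out. Dll4, the Notch ligand of tip cells, differed by 0.23 ± 0.14 and 0.03 ± 0.14 (adjusted p = 0.254 and 0.906).

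The pericyte genes parted: Rgs5 rose in both comparisons and Cspg4 passed in neither. RGS5 is a regulator of G protein signalling that marks pericytes of tumour vessels. Its values were 8.96, 8.28 and 8.04 in APC-WT no Dox, 8.42, 8.73 and 8.71 in APC-WT Dox, 9.36, 9.03 and 9.40 in APC-KO no Dox and 9.25, 9.58 and 9.51 in APC-KO Dox tumours. Again every APC-KO array lay above every APC-WT array. The differences of 0.84 ± 0.19 and 0.83 ± 0.19 corresponded to 1.78-fold and 1.78-fold (adjusted p = 0.00545 and 0.00667). Both passed in each fit with 1 array left out, and all 4 probe sets of the gene passed in both comparisons. Cspg4, the NG2 proteoglycan of pericytes and some other mesenchymal cells, read -0.22 ± 0.12 and 0.08 ± 0.12 (adjusted p = 0.199 and 0.691).

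**Figure D3:**
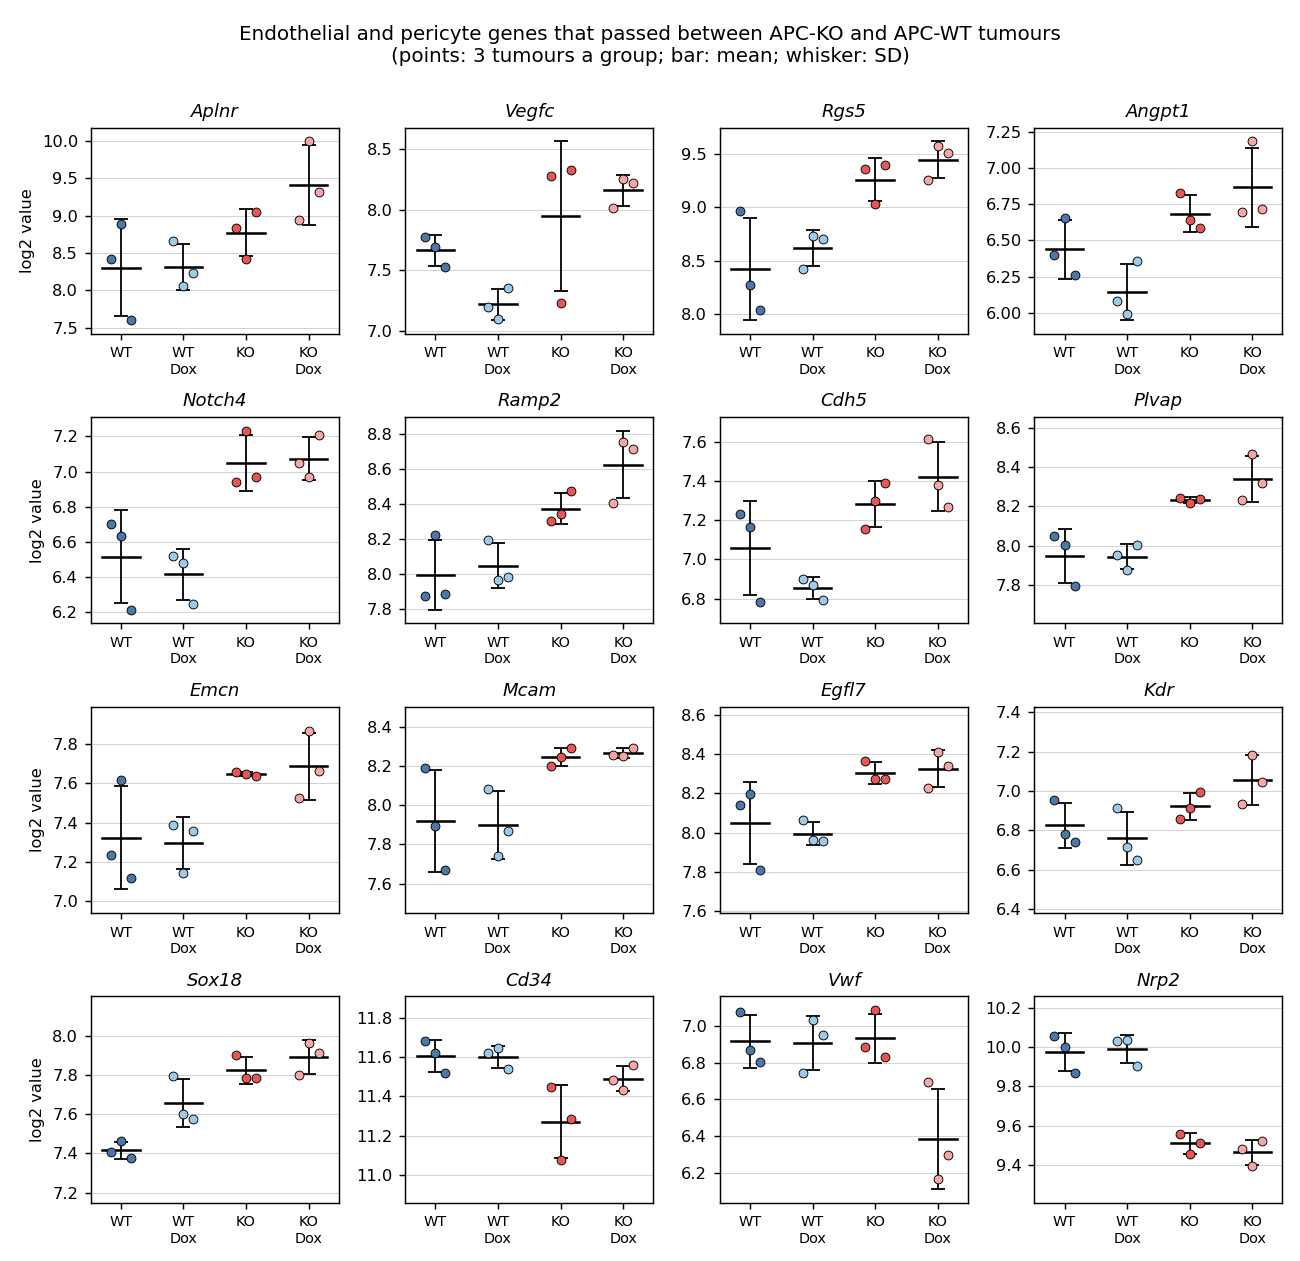
Log2 value on each array (points), mean (bar) and SD (whisker) in the 4 groups of 3 tumours for the 16 members that passed between genotypes; each panel has its own scale, so heights are not comparable between genes. Notch4 and Rgs5 lie higher and Nrp2 lower on every APC-KO array than on every APC-WT array, and Vwf is low in APC-KO Dox tumours.

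Of 18 other mural cell markers listed, 9 were above the floor, and 3 rose and 1 fell in APC-KO tumours without Dox, or 44.4% against 24.9% of all genes. Abcc9 and Kcnj8 encode the subunits of the ATP-sensitive potassium channel of pericytes. Abcc9 read 7.27, 6.80 and 6.98 in APC-WT no Dox and 8.14, 8.06 and 8.20 in APC-KO no Dox tumours, a difference of 1.12 ± 0.12 (adjusted p = 3.45e-05). Kcnj8 read 6.37, 5.66 and 6.04 in APC-WT and 7.04, 7.05 and 7.32 in APC-KO tumours, a difference of 1.12 ± 0.15 (adjusted p = 2e-04). Notch3, the Notch receptor of mural cells, rose by 0.36 ± 0.11 (adjusted p = 0.0293), and Mylk, the myosin light chain kinase of contractile cells, fell by 0.44 (adjusted p = 0.00462). With Dox, Abcc9 and Notch3 rose by 0.54 ± 0.12 and 0.49 ± 0.11 (adjusted p = 0.0083 and 0.00668), and Kcnj8 did not pass. None fell, so 22.2% passed against 19.9% of all genes. Notch3 without Dox did not pass when replicate 1 or 2 of APC-WT no Dox, or replicate 1 or 3 of APC-KO no Dox, was left out (up to 0.093), and the other 5 of these 6 calls passed in each fit with 1 array left out. The medians of the 9 genes were -0.04 and 0.02. Of 5 smooth muscle markers, 3 were tested and none passed, while Myh11 and Cnn1 lay under the floor on all arrays. Des and Acta2 had the smallest p, at -0.46 ± 0.18 for Des between genotypes with Dox and -0.43 ± 0.16 for Acta2 with Dox in APC-WT tumours (adjusted p = 0.093 and 0.229).

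The 7 members that passed in both comparisons were set beside their promoters, to see whether they share the binding core of the ETS factors, the family of ERG that acts at many endothelial genes. Promoters were taken from RefSeq on GRCm38.p6 as the 250 bases before each start. Entries matched 23 of the 36 members, and 4 of the 7. Those 4 are printed 5′ to 3′ on the strand of the gene, with the core GGAA, or TTCC where it lies on the opposite strand, in capitals. They are Nrp2 at chr1:62703067-62703316, Rgs5 at chr1:169655251-169655500, Mcam at chr9:44134408-44134657 and Notch4 at chr17:34564045-34564294, all on the plus strand.
Nrp2: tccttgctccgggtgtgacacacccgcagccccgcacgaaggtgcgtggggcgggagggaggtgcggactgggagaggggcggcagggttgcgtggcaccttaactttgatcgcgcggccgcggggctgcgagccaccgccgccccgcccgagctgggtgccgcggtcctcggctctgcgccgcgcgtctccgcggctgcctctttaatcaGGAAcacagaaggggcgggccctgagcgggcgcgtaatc
Rgs5: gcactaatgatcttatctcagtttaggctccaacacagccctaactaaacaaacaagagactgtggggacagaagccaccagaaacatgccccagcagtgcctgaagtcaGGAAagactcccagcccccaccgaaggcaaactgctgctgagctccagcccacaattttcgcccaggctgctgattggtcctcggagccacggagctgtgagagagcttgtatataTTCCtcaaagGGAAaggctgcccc
Mcam: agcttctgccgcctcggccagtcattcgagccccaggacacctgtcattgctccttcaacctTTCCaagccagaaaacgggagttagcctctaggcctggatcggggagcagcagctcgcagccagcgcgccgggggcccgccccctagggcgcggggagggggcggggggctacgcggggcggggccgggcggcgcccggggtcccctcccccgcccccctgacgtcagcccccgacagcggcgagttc
Notch4: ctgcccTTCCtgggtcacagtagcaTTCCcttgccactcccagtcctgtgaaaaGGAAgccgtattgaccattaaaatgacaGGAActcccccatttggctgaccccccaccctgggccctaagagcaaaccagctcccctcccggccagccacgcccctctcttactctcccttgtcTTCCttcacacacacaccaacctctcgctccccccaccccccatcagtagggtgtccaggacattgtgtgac
The Notch4 window holds 5 such cores, that of Rgs5 holds 3, and those of Mcam and Nrp2 hold 1 each. The core is short and common: 92.9% of the 28 promoters of matched members held it and 93.4% of all 32851 promoters did, with a median of 3 matches in each set. The longer TGGGAA, the core read by the Notch partner RBPJ, which contains GGAA, was in 17.9% of member promoters and 21.6% of all, and the SOX core ACAAT in 28.6% and 27.7%. The hypoxia response core ACGTG was in none of the 28 member promoters and in 16.6% of all. Both strands were searched. These matches describe letters in the windows and not bound sites.

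Within a genotype, Dox moved no member past the threshold. In APC-WT tumours 0 of 33 members passed, against 0.0271% of all genes, and 1 member, Sox18, had an unadjusted p under 0.05, as did 15.5% of all genes. Each Sox18 value with Dox lay above each value without, by 0.24 ± 0.08 on average (adjusted p = 0.166). Vegfc was the other member whose groups did not overlap, with Dox values lower by 0.45 (adjusted p = 0.332). Non-overlap in 2 of 33 members, or 6.06%, compares with 21.3% of all genes. The members' median difference was -0.03. Without APC-WT no Dox replicate 3, 418 of all genes (3.78%) passed and still 0 members.

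In APC-KO tumours 0 of 33 members passed, against 0.542% of all genes, and 7 had an unadjusted p under 0.05, or 21.2% against 13.1%. Vwf was nearest to the threshold, at 6.88, 7.08 and 6.83 without and 6.69, 6.17 and 6.30 with Dox, a difference of -0.55 ± 0.13 (adjusted p = 0.0881). Without APC-KO Dox replicate 1, the highest of its group, the difference was -0.70 and passed (adjusted p = 0.0181). Cldn5, Apln and Flt4 read -0.40 ± 0.12, -0.32 ± 0.13 and -0.23 ± 0.09, and Ramp2, Nrp1 and Cd34 read 0.25 ± 0.11, 0.24 ± 0.09 and 0.22 ± 0.08. Their adjusted p lay between 0.17 and 0.36. Groups did not overlap for 7 members, or 21.2% against 17.7% of all genes. The median difference was 0.04.

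**Figure D4:**
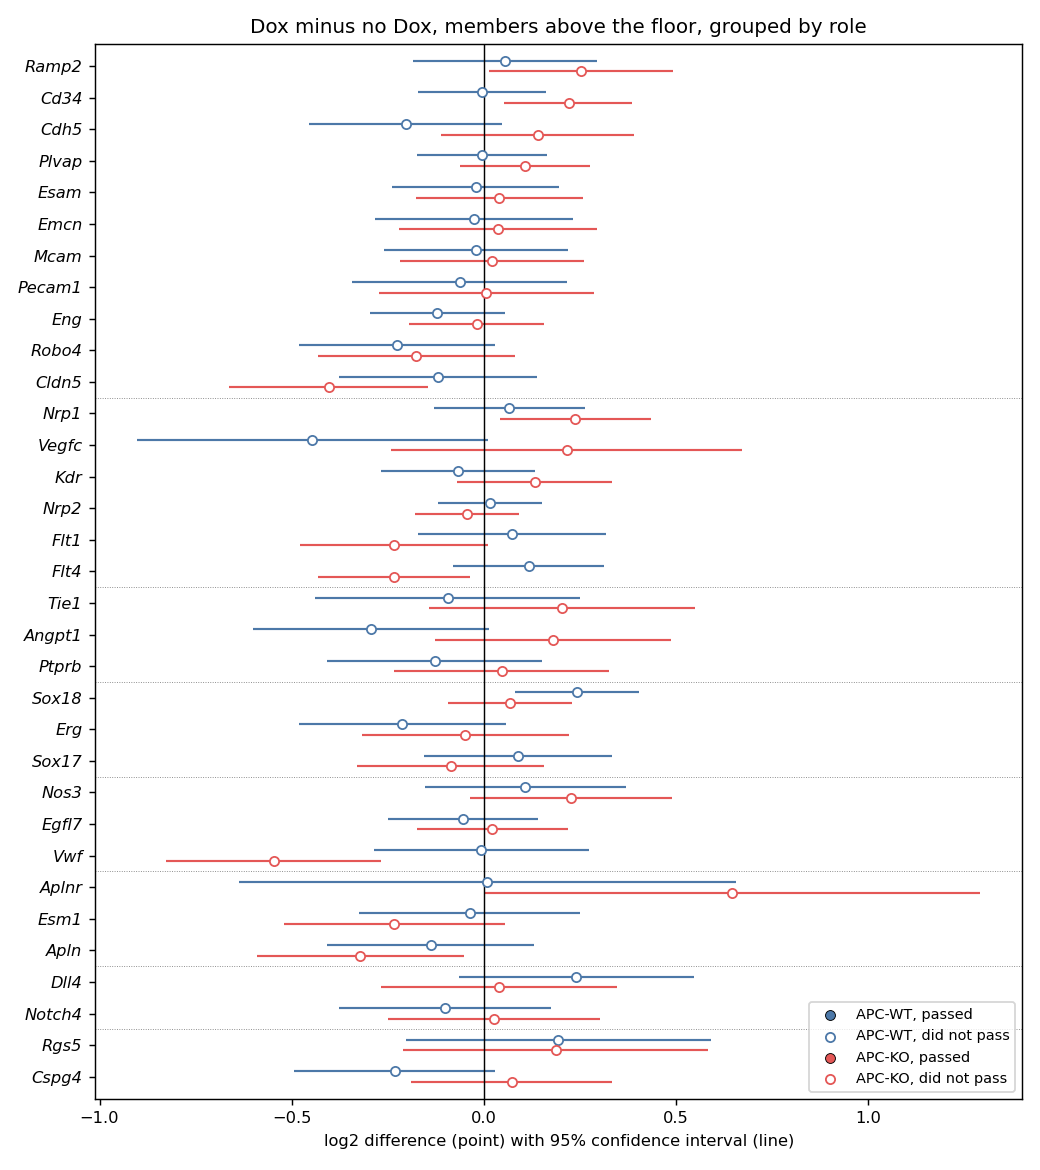
Difference between tumours with and without Dox for the 33 members above the floor, on the log2 scale, in APC-WT (blue) and APC-KO (red) tumours; points are fitted differences over 3 tumours a group and lines are 95% confidence intervals. All points are open because none passed; Vwf in APC-KO tumours, at -0.55, lies farthest below 0.

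The interaction tests whether Dox acted differently in the genotypes. It passed for 0 of 33 members and 0.00% of all genes (11.9% at an unadjusted p under 0.05), with the smallest adjusted p among members at 0.299. By the limma fit 4 members had an unadjusted p under 0.05. Vwf and Flt4 were lower by 0.54 and 0.35 in the response of APC-KO tumours than in that of APC-WT tumours, and Vegfc and Angpt1 were higher by 0.66 ± 0.30 and 0.47 ± 0.20. The 95% intervals ran, for example, from 0.02 to 1.31 for Vegfc and from -0.28 to 1.55 for Aplnr. Without APC-WT no Dox replicate 3 the interaction passed for 119 of all genes and still for 0 members. The member calls with Dox and without Dox are not shown to differ.

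Of 32 listed angiogenic ligands and regulators outside the 36, 26 were tested. With Dox in APC-KO tumours 3 fell, 1 rose and 22 did not pass, so that 15.4% passed against 0.542% of all genes. In APC-WT tumours none passed. Angpt2, which opposes angiopoietin-1 at TEK, went from 6.65, 6.96 and 6.60 to 6.03, 5.66 and 5.69, with each Dox array lower, a difference of -0.94 ± 0.14 (adjusted p = 0.00995). Adm, the adrenomedullin that RAMP2 helps to bind, went from 6.59, 6.73 and 6.51 to 6.06, 5.45 and 5.75, a difference of -0.86 ± 0.14 (adjusted p = 0.0113). Pgf, the placental growth factor and a ligand of FLT1, went from 7.58, 7.84 and 7.74 to 7.19, 6.84 and 6.97, a difference of -0.72 ± 0.10 (adjusted p = 0.00781). Serpinf1, an antiangiogenic serpin, rose by 0.78 ± 0.15 (adjusted p = 0.0337). The interaction did not pass for any of them (adjusted p from 0.149 to 0.27). Each of these 4 calls ended when single arrays were left out. All of them ended without APC-KO Dox replicate 3, and those of Angpt2, Adm and Serpinf1 also when either replicate 2 of that group or replicate 1 of the APC-KO tumours without Dox was left out. The adjusted p reached 0.0553 for Pgf, 0.059 for Angpt2, 0.0625 for Adm and 0.167 for Serpinf1, whose call ended for 7 of the 12 arrays. With only the groups compared, neither Adm nor Serpinf1 passed, and Serpinf1 did not pass without a trend in eBayes, with the mean of probe sets or with the replicate numbers as a block. Over all genes, 60 passed with all arrays, 1 without APC-KO Dox replicate 3 and 4 without APC-KO no Dox replicate 1.

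Other measures moved between the same APC-KO groups. Of 3 neutrophil markers tested, S100a8 and S100a9 fell, with differences of -4.07 and -4.30 (adjusted p = 0.0113 and 0.0133), and the log2 summed neutrophil value was 8.94 to 10.84 without and 7.30 to 7.77 with Dox. Of 10 macrophage markers Cd14 fell by 0.48 (adjusted p = 0.0375). The mean log2 value of the 18S ribosomal control probe sets was 9.475 to 9.758 without and 8.959 to 9.237 with Dox. The calls of S100a8 and S100a9 ended too when replicate 3 of the Dox group was left out, or replicate 1 of the other, (up to 0.0808), and that of Cd14 for 5 of the 12 arrays (up to 0.157). The part of these in the ligand differences was not tested.

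Between genotypes, 5 of the 26 ligands rose and 3 fell in APC-KO tumours without Dox, and 5 rose and 2 fell with Dox. That is 30.8% and 26.9%, against 24.9% and 19.9% of all genes. Vegfd, another ligand of FLT4, stood at 7.61, 8.08 and 7.44 in APC-WT and 8.69, 8.76 and 8.89 in APC-KO tumours without Dox, and at 7.51, 7.48 and 7.35 in APC-WT and 8.80, 9.00 and 8.88 in APC-KO tumours with Dox. The APC-KO arrays were higher throughout, by 1.07 ± 0.13 and 1.45 ± 0.13 (adjusted p = 6.28e-05 and 4.09e-06). Col18a1, the collagen from which endostatin is cut, was lower by 0.82 and 0.93 (adjusted p = 3.61e-05 and 1.18e-05). Pgf and Vegfa rose without Dox by 0.77 ± 0.10 and 0.64 ± 0.17, and Jag1, a Notch ligand, and Adamts1, a protease that binds VEGF-A, fell by 0.55 and 0.23. With Dox Serpinf1 and the semaphorin Sema3a rose by 1.02 ± 0.15 and 0.38 ± 0.09, and Efna1, an ephrin, fell by 0.33. Of these calls only those of Vegfd and Col18a1 in both comparisons, Pgf without Dox and Serpinf1 with Dox passed in each fit with 1 array left out, or 3 of 8 calls without and 3 of 7 with Dox. Those of Jag1 and Adamts1 ended for 8 and 9 of the 12 arrays. The median over the 26 was 0.07 without and -0.09 with Dox.

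**Figure D5:**
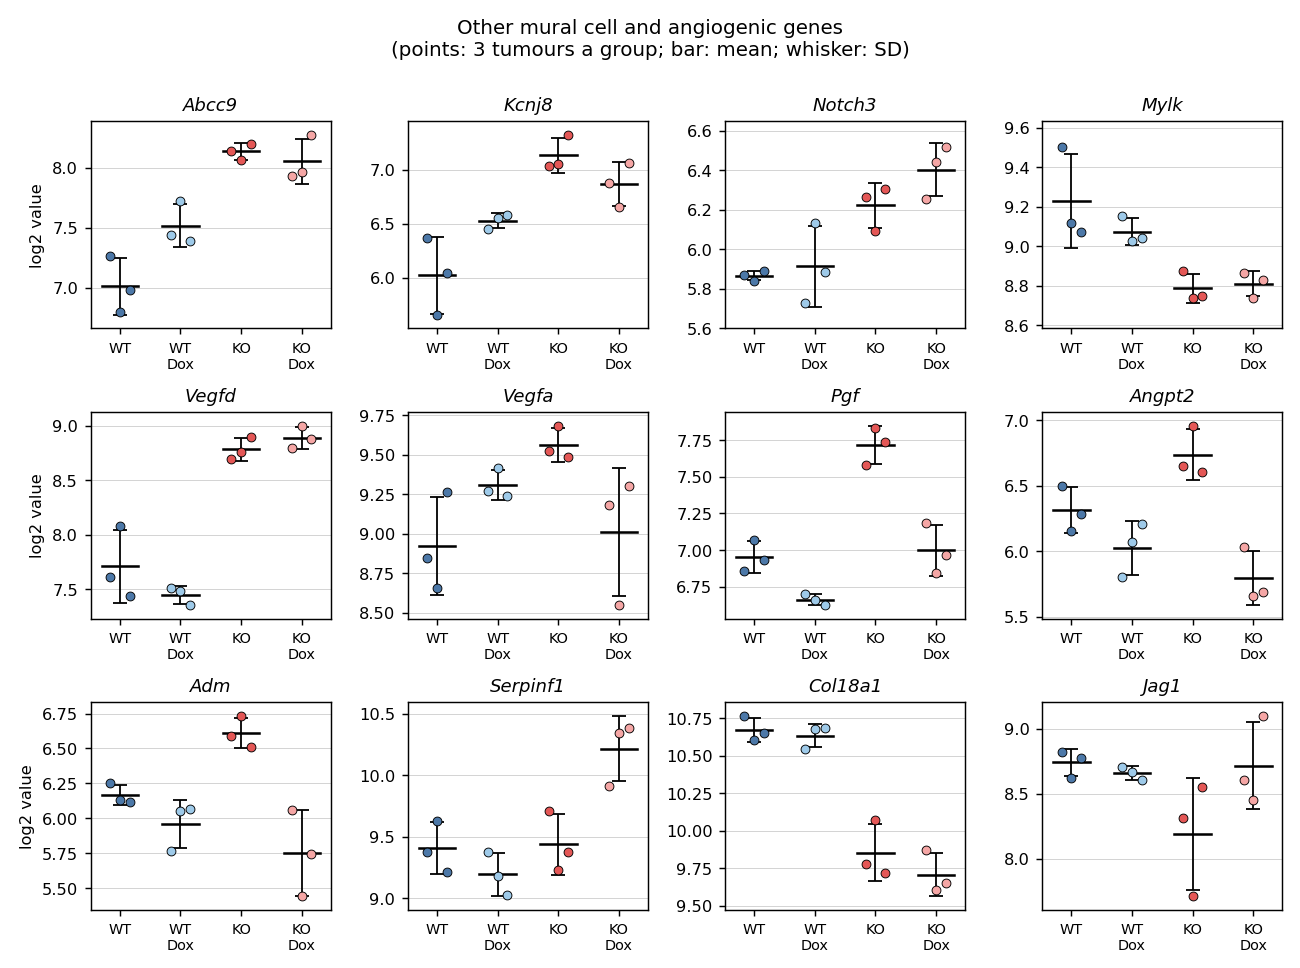
Log2 value on each array (points), mean (bar) and SD (whisker) in the 4 groups of 3 tumours for 12 mural cell and angiogenic genes outside the 36; each panel has its own scale. Abcc9, Kcnj8 and Vegfd lie higher and Col18a1 lower on every APC-KO array, while Pgf, Angpt2 and Adm are highest in APC-KO tumours without Dox. Kcnj8 passed between genotypes only without Dox.

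Of 28 other angiogenic receptors and signalling genes 26 were tested. Of these, 26.9% passed without Dox and 7.69% with Dox, against 24.9% and 19.9% of all genes. Higher calls alone made up 13.8% and 11.9% of all genes. Without Dox 7 rose and none fell, led by the CXCL12-binding receptor Ackr3 at 0.84 ± 0.13, the endothelin receptor Ednrb at 0.73 ± 0.17 and the PDGF receptor Pdgfra at 0.54 ± 0.07, which fibroblasts carry. With Dox 2 rose, Pdgfra by 0.41 ± 0.07 and the semaphorin receptor Plxnd1 by 0.39 ± 0.11. Other endothelial markers, 22 tested of 32 listed, had a median of 0.04 without Dox, with 3 higher and 2 lower. With Dox the median was 0.12, with 2 higher and 1 lower. The shares that passed, 22.7% and 13.6%, were not above those of all genes, 24.9% and 19.9%. Adgrf5, an adhesion receptor, Gpihbp1, which anchors lipoprotein lipase in capillaries, and Cav1, the caveolin, rose without Dox by 0.54 ± 0.09, 0.36 ± 0.10 and 0.30 ± 0.08. Icam1, an inducible leukocyte adhesion molecule, and Ecscr, a surface protein of endothelium, fell by 0.36 and 0.21. With Dox Cav1 and the factor Sox7 rose by 0.28 ± 0.08 and 0.28 ± 0.09, and Ecscr fell by 0.30. The difference between these 2 endothelial lists was not tested. Of 9 other lymphatic markers 6 were tested, and Itga9, an integrin chain of lymphatic valves, and Foxc2, a factor of valves, rose without Dox by 0.57 ± 0.12 and 0.40 ± 0.08. None passed with Dox. With 1 array left out, the calls of Plxnd1, Gpihbp1, Cav1, Icam1, Sox7 and, without Dox, Ecscr ended for at least 1 array, those of Icam1 and Ecscr for 10 of the 12 arrays each. Those of Ackr3, Ednrb, Pdgfra, Adgrf5, Itga9, Foxc2 and, with Dox, Ecscr passed each time.

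Markers of other cells moved between the same groups, where 24.9% of all genes passed without Dox and 19.9% with Dox. Of 9 fibroblast markers 4 rose in APC-KO tumours with Dox, with a median of 0.25, and their log2 summed value was 14.73 to 14.79 in APC-WT and 14.90 to 14.96 in APC-KO tumours. Among them Col1a1, a collagen chain, rose by 0.50 ± 0.09, and Dpt, a matrix protein that lay under the floor on all 3 APC-WT Dox arrays, was higher. Without Dox 2 rose, Fap and Pdgfra, and the summed values overlapped, at 14.80 to 14.91 and 14.85 to 15.03. Of 5 T and NK cell markers 4 fell in each comparison, with medians of -0.69 and -0.65. Their summed value was 9.77 to 10.10 against 9.18 to 9.27 without Dox and 9.36 to 9.71 against 8.82 to 9.31 with Dox. All 3 neutrophil markers tested rose without Dox and 2 fell with Dox, led by S100a8 and S100a9, at 2.94 and 3.13 without and -2.13 and -2.35 with Dox. The summed neutrophil value was 7.37 to 8.33 against 8.94 to 10.84 without Dox and 8.09 to 9.29 against 7.30 to 7.77 with Dox. Cxcr2 lay under the floor throughout. Of 10 macrophage markers, Csf1r and Cd14 rose without Dox and Lyz2 fell with Dox. Ptprc, carried by all leukocytes, passed in no comparison and came nearest at 0.22 ± 0.08 with Dox (adjusted p = 0.0722). Of the epithelial and tumour cell markers, 4 of 7 lay under the floor on all arrays, Krt8 fell without Dox by 1.22 and Cdh1 rose with Dox by 0.63 ± 0.17. Leaving out single arrays ended the calls of Fap, Krt8 and Cdh1, and with Dox those of S100a8, S100a9, Cd3e and Nkg7. The fat cell marker Fabp4 and the glial marker Sox10 passed in no comparison, and no red cell marker was above the floor on average. The part of these cells in the differences of the endothelial and pericyte genes was not tested.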

How the data were processed

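RNA of 12 tumours, 3 in each of 4 groups, was measured on Affymetrix arrays from biotinylated cRNA, per the labels' protocols. The deposited values are log2 expression values that the authors computed. MAS5 is named in the submitters' processing notes without a version; further steps were not given in the sources used here. The log2 unit was read from the range, 1.86 to 14.16. The number of arrays limits the precision.

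Of 45101 probe sets, 34945 named 1 gene in the platform annotation, 932 several and 9160 none; 64 were controls. RefSeq names were matched by Entrez identifier for 34741. Genes whose brightest probe set had a mean at or above the floor were tested (11070), and 7123 were not. A group-means model over all arrays was fitted with limma 3.58.1 in R 4.3.3 (lmFit, eBayes with a trend), with 5 two-sided contrasts and Benjamini-Hochberg adjustment at 0.05, and was tested on simulated data. The smallest p of an exact permutation test at this size is 0.1. Alternatives covered the eBayes prior, probe sets, the floor, normalization, array weights, a replicate block, only the groups compared and leaving out each array; leaving out both arrays that stand apart, and each probe set alone, were added after seeing the data.

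The members and all lists were chosen with earlier results of these data known. For each member that passed, values were given on every array of the comparisons in which it passed. These members included the one with the largest difference in each role tested. From other lists up to 3 passing genes per direction were named, or the 2 with the smallest p.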

Additional observations from a re-analysis of the deposited data

How the results depend on the processing

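Of 23 member differences that passed, over the 5 comparisons, 1 changed sign in any setting: a probe set of Nrp2 read 0.033 (adjusted p = 0.815) between genotypes without Dox where the gene's brightest probe set read -0.47. Of the 142 that did not pass, 50 changed sign in at least 1 setting, among them Flt1 with Dox (-0.04, and 0.22 by another probe set) and Nrp1 without Dox (0.06 and -0.02), and none passed with the changed sign. The count of members that passed with Dox between genotypes moved most. It was 15 of 33 as reported, where 19.9% of all genes passed. With a floor at the 75th percentile it was 7 of 13 members tested, where 24.6% of all genes passed. With 1 array left out it was 8 to 19. The 8 came where 12.1% or 14.1% of all genes passed, and the 19 where 21.3% did. With array quality weights the count was 22, while 31.7% of all genes passed. Without Dox the count was 8 as reported and 5 to 10 with 1 array left out. The lowest came without APC-WT no Dox replicate 3, where 24.7% of all genes passed, and the highest where 19.4% or 20.1% did. With Dox in APC-KO tumours the count was 0 as reported and 0 to 1 with 1 array left out. The 1 came without APC-KO Dox replicate 1, where 0.831% of all genes passed. In APC-WT tumours the count was 0 in every setting except array quality weights. There 1 of 33 members, Robo4, passed as lower (adjusted p = 0.0484), and 5.9% of all genes passed. The interaction passed for 0 members in all settings run. Without both arrays that stand apart, chosen after seeing the data, 6 of 33 members passed without Dox and 13 with Dox. Of all genes, 23.6% and 15.2% passed in that fit. The deviations of same-numbered tumours from their group means correlated at -0.221 to 0.175. With 3 tumours a group this cannot show whether the numbers pair the tumours, since a small shared effect could give such values too. With the replicate number as a block, 9 of 33 members passed without Dox and 13 with Dox, against 24.4% and 19.5% of all genes. Leaving out each array in turn left 5 of the 8 calls without Dox and 8 of the 15 calls with Dox past the threshold every time. The causes of these changes were not tested. Members near the floor, such as Tek and Sox17, can hide a change.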
